A study of Mus musculus with 9 samples.

Results

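The genes described here are 36 mouse genes of the p53 pathway and of apoptosis, chosen by name from the 48526 genes of the table. They are Trp53 and its regulators Mdm2 and Mdm4, 15 p53 target genes, 12 members of the BCL2 family, and 6 genes of the caspases and the apoptosome. All 36 symbols matched 1 row each. RNA was sequenced from the medial ganglionic eminence (MGE) of C57BL/6 mouse embryos at day 14.5; the MGE is a progenitor zone of the ventral forebrain that supplies interneurons to the cortex. All 9 libraries carried Nkx2.1-cre, a recombinase expressed in the MGE, and the Rosa26-YFP reporter. The 5 knockout libraries were Ctnnb1fl/fl, with 2 floxed alleles of the beta-catenin gene. Of the 4 controls, replicates 1, 2 and 3 are listed without a floxed allele and replicate 4 was heterozygous, Ctnnb1fl/wt. The extraction notes speak of collected cells or of tissue taken out, without assigning libraries to either, and no label says whether a library is 1 embryo. The p-values therefore reflect library-to-library spread, part of which may be technical.

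The p53 protein is a transcription factor that is kept low by MDM2 and MDM4 and activates genes of cell cycle arrest, repair and cell death. In the intrinsic pathway of apoptosis, BH3-only proteins release BAX and BAK from anti-apoptotic BCL2 proteins. BAX and BAK then open the outer mitochondrial membrane, and cytochrome c assembles APAF1 and caspase 9 into the apoptosome. The developing forebrain depends on this machinery: loss of Mdm2 or of Bcl2l1 causes death of neural cells, and caspase 9 and APAF1 remove surplus progenitors.

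Library totals, estimated from the smallest value above 0 in each library, were 5120585 to 5569444 reads, with 20274 to 22903 genes above 0. Ctnnb1 was at 9545 to 9967 normalized counts in the controls and at 5477 to 7661 in the knockouts. Of 10 MGE markers, all were above the minimum level for testing. By limma, 6 were higher and 1, Olig2, was lower in knockout (log2 fold change -0.93), against 6 and 2 at an unadjusted p under 0.05. Nkx2-1 was at -0.36 and did not pass (adjusted p = 0.0706). The summed level of the MGE markers was 19813 to 33031 in control and 29524 to 37362 in knockout. Of 12 markers of proliferating progenitors, 10 were lower and 0 higher in knockout by limma (11 and 0 at an unadjusted p under 0.05), with sums of 36795 to 43258 in control and 16982 to 27943 in knockout. Of 11 markers of postmitotic neurons, 8 were higher and 0 lower (10 and 0 unadjusted), with sums of 17819 to 22476 and 31055 to 39396. Control replicate 1 stood apart, with a sum of 2683 over 10 markers of cortical neurons against 123 to 571 in the other 8 libraries, and of 2964 over 7 choroid plexus markers against 165 to 737. Knockout replicate 5 had a sum of 3946 over 7 pericyte and mesenchyme markers, against 1140.5 to 2364.1 in the other 8 libraries. In knockout replicate 4, Pax6 was at 492.7 and Otx2 at 410.5, against at most 101.8 and 105.8 in the other knockouts. Control replicate 4 had the highest sum over 7 erythroid markers, 10988.1 against 2698.5 to 9236.0 in the other 8 libraries. Its globin gene Hbb-y was at 8833.7, against 611.4 to 2452.0 in the others. In bulk RNA, fewer cells of a type and less RNA per cell cannot be told apart.

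Of the 36 members, 33 reached a mean of 10 normalized counts and were tested. By limma, with an adjusted p under 0.05, 6 rose in knockout and 5 fell, together 33.3% of those tested. Over all 13780 genes tested, 34.5% were called, 17.2% higher and 17.3% lower, so the members were called about as often as any gene. The members that rose were the p53 targets Plk2, Trp53inp1, Btg1 and Sesn1, the survival gene Bcl2l1 and the BH3-only gene Bmf. The members that fell were Trp53, its targets Gtse1, Rps27l and Aen, and the caspase inhibitor Xiap. Of 16 p53 genes tested, 4 rose and 4 fell. Of 11 BCL2 family genes, 2 rose and 0 fell by limma, and 0 fell at an unadjusted p under 0.05. Of 6 caspase and apoptosome genes, 1 fell and 0 rose, with 1 higher and 2 lower at an unadjusted p under 0.05. The share of all genes at an unadjusted p under 0.05 was not counted, so unadjusted counts here have no background to compare with. The median log2 fold change (knockout minus control, on log2 of the normalized count plus 1) was -0.03 for the p53 genes, 0.04 for the BCL2 family and -0.12 for the caspase group, against -0.01 for all genes tested. Knockout and control libraries did not overlap for 13 of the 33 members, against 29.1% of all genes tested.

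Control replicate 1 stood apart, and replicate 4 carries a floxed allele and had the highest Hbb-y of all libraries. Without replicate 1 alone, the same 6 members rose and the same 5 fell, 33.3% against 29.9% of all genes. Without replicate 4 alone, 5 rose and the same 5 fell, 30.3% against 25.7% of all genes, and Sesn1 was the call lost. When both were left out and 2 controls remained, 5 members rose and 2 fell, 21.2% of 33. Of all genes, 18.2% were called under that choice, 10.1% higher and 8.08% lower. The 5 were those named above without Sesn1, and the 2 were Gtse1 and Xiap. Against these 2 controls Trp53 (log2 fold change -0.33, adjusted p = 0.0538), Rps27l (-0.34, 0.0898) and Aen (-0.33, 0.104) did not pass by limma; with all controls they were at -0.35, -0.57 and -0.43.

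**Figure D1:**
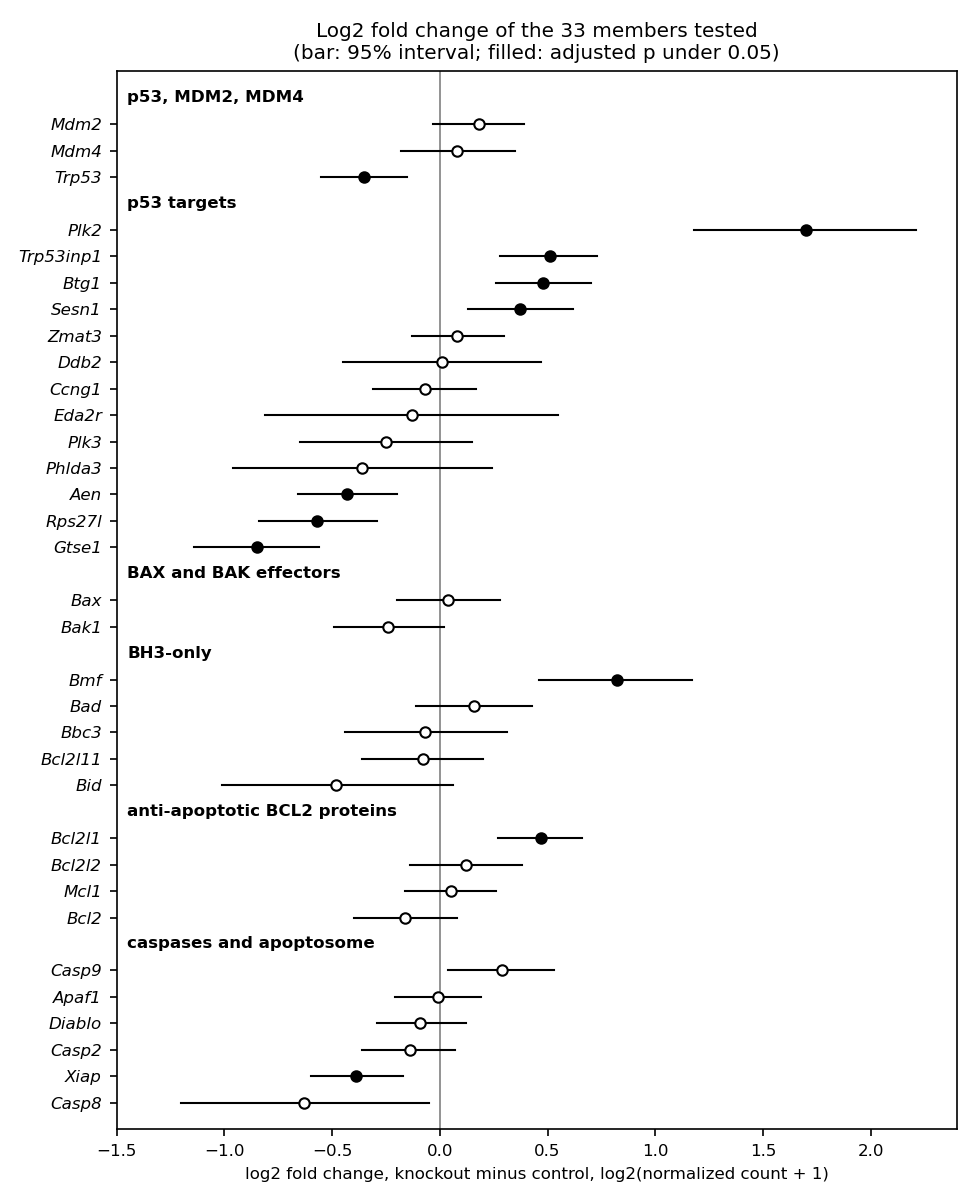
Log2 fold change of the 33 members tested, knockout minus control, with its 95% interval, grouped by role and ordered within each group; filled points have an adjusted p under 0.05. The p53 targets hold filled points on both sides of 0, from Gtse1 at -0.85 to Plk2 at 1.70, while most of the BCL2 family and the caspase group lie near 0.

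Trp53, the gene of p53 itself (chromosome 11, 69580359 to 69591873, mm10), was lower in knockout. It stood at 965, 861, 868 and 832 normalized counts in control replicates 1 to 4 and at 681, 734, 772, 679 and 595 in knockout replicates 1 to 5. The groups did not overlap, and control replicate 1 was the highest library and knockout replicate 5 the lowest. The means were 882 ± 57.9 (SD, n = 4) and 692 ± 66.7 (SD, n = 5), or -0.35 as a log2 fold change (SE 0.0922, adjusted p = 0.00905), 0.784 of the control level.

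Mdm2, the ubiquitin ligase that degrades p53 and is itself a p53 target (chromosome 10, 117688875 to 117710758), did not pass the test. Its values were 479, 642, 542 and 547 in the controls and 609, 617, 712, 580 and 605 in the knockouts, so that control replicate 2 lay among the knockouts. The log2 fold change was 0.18 with a 95% interval from -0.03 to 0.39 (adjusted p = 0.168). Mdm4, which binds p53 and blocks its activity, had means of 916 ± 172 and 960 ± 98.8 (0.08, interval -0.18 to 0.35).

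Among the p53 targets, Plk2 changed most. It encodes a polo-like kinase that acts at centrioles and at synapses of neurons (chromosome 13, 110395046 to 110400844). It was at 133, 76.5, 92.4 and 117 normalized counts in the controls and at 250, 223, 426, 398 and 441 in the knockouts. All knockouts lay above all controls, and knockout replicates 3, 4 and 5 lay well above knockout replicates 1 and 2. Plk2 rose by 1.70 on the log2 scale (SE 0.235, adjusted p = 0.000426), which is 3.24-fold. Knockout replicate 2 was also the lowest knockout for the summed neuron markers (31055) and replicate 5 the highest (39396); the part of neurons in the rise was not tested.

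The next increases were smaller. Trp53inp1, which helps p53 activate death genes and takes part in autophagy (chromosome 4, 11156431 to 11174379), was at 397, 567, 486 and 510 in control and at 691, 697, 755, 718 and 603 in knockout. It rose by 0.51 (SE 0.107, adjusted p = 0.00253), with control replicate 1 the lowest library. Btg1, an antiproliferative gene of differentiating cells (chromosome 10, 96617006 to 96622809), was at 444, 406, 369 and 375 in control and at 544, 492, 659, 503 and 590 in knockout, and rose by 0.48 (SE 0.103, adjusted p = 0.00284). Neither gene overlapped between the groups.

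Sesn1, a sestrin that restrains growth signalling through mTORC1 (chromosome 10, 41809935 to 41908424), was at 234, 194, 234 and 170 in control and at 275, 246, 303, 259 and 258 in knockout. The lowest knockout, replicate 2, lay just above control replicates 1 and 3. Sesn1 rose by 0.37 (SE 0.116, adjusted p = 0.0214). By limma it did not pass without control replicate 2 (log2 fold change 0.35, adjusted p = 0.0517), control replicate 4 (0.28, 0.0829) or knockout replicate 3 (0.33, 0.0566), nor against control replicates 2 and 3 only (0.33, 0.0867).

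**Figure D2:**
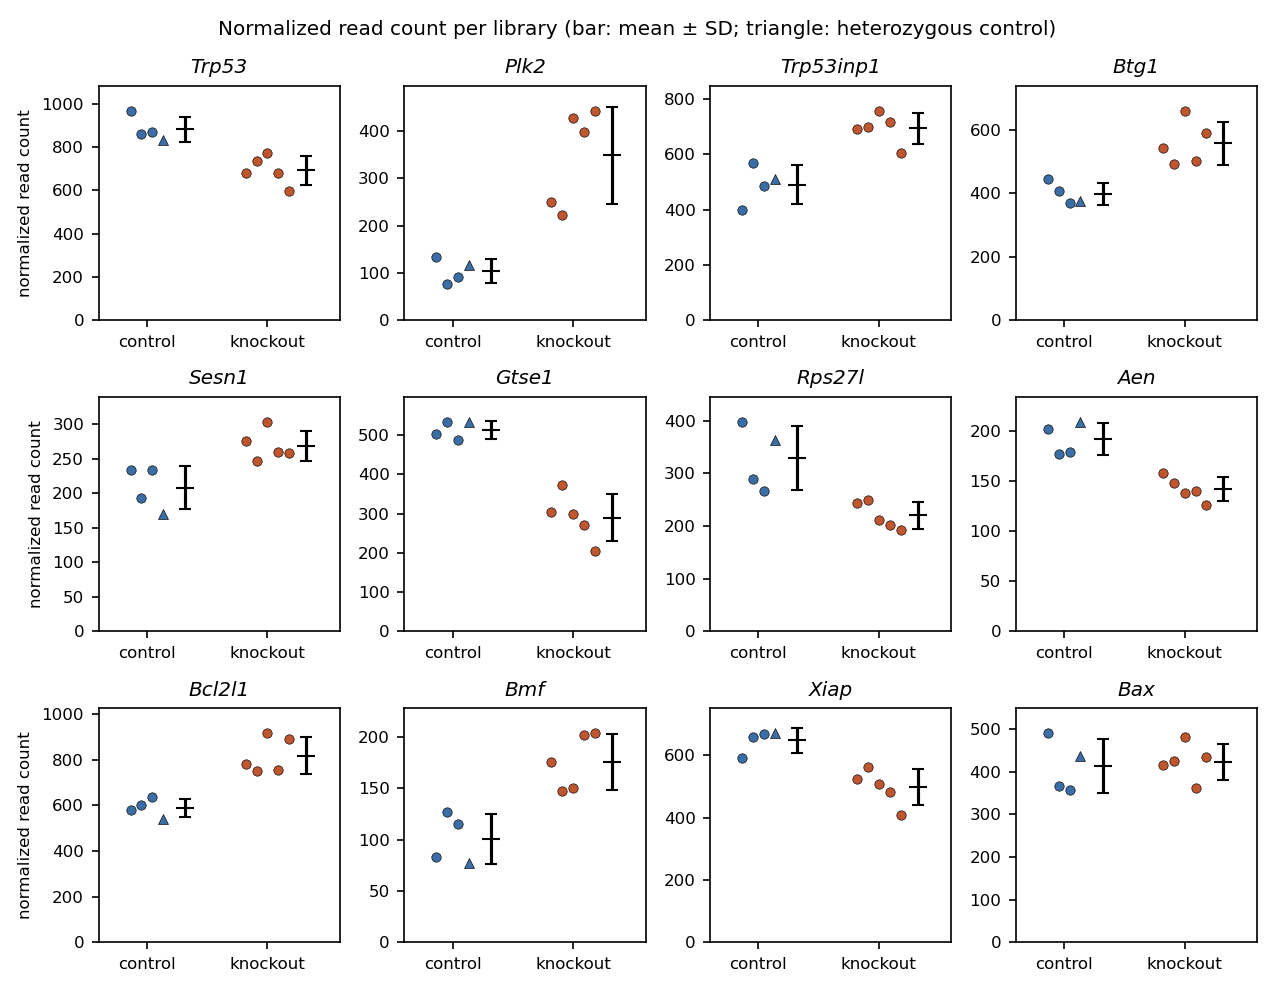
Each point is 1 library's normalized read count, for the 11 members past the threshold and for Bax; the bar gives a group's mean with its SD, and a triangle marks control replicate 4, the heterozygote. The 11 genes were chosen by adjusted p on these same values. The groups do not overlap for any of them, and do not overlap for 29.1% of all genes tested. Bax overlaps, with means of 413 in control and 423 in knockout.

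Gtse1, a p53 target that is made in G2 and M phase and moves p53 out of the nucleus (chromosome 15, 85859745 to 85876573), fell most among the members tested. It was at 502, 533, 487 and 533 in control and at 305, 372, 299, 271 and 205 in knockout, 0.556 of the control level on the fitted scale (log2 fold change -0.85, SE 0.136, adjusted p = 0.000447). Its highest knockout was replicate 2 and its lowest was replicate 5. The same libraries were the highest and the lowest knockouts for the summed progenitor markers, at 27943 and 16982. The part of proliferating cells in the fall of Gtse1 was not tested.

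Rps27l, a ribosomal protein-like gene that p53 induces (chromosome 9, 66946086 to 66949516), was at 397, 290, 266 and 363 in control and at 243, 250, 212, 202 and 193 in knockout. Control replicates 1 and 4 were well above control replicates 2 and 3, and the fall was 0.57 on the log2 scale with all controls (SE 0.130, adjusted p = 0.0041) and 0.34 against replicates 2 and 3 alone. Reads shared with its paralogue Rps27 could affect this gene. Aen, an exonuclease gene that p53 induces in apoptosis (chromosome 7, 78895854 to 78911209), was at 202, 178, 180 and 209 in control and at 158, 148, 138, 141 and 127 in knockout. It fell by 0.43 (SE 0.109, adjusted p = 0.0076), and control replicates 1 and 4 were again the higher controls. For neither gene did the groups overlap.

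The other p53 targets gave no call. Of these, Zmat3, an RNA-binding protein gene (300.2 ± 29.8 and 318 ± 27.3), and Ccng1, cyclin G1 (178 ± 25.1 and 168 ± 6.48), were among the better measured, with 95% intervals of -0.13 to 0.30 and -0.31 to 0.17. Plk3, another polo-like kinase, had means of 53.3 and 44.6, Phlda3, an inhibitor of AKT, 48.1 and 39.1, and Ddb2, a sensor of ultraviolet damage, 29.1 in both groups. Ddb2 shares 23.8% of its exon bases with the opposite-strand gene Acp2 (mean 333), so its level is uncertain unless counting used strand. Of the death receptor genes, Eda2r had 12.3 and 11.4, while Tnfrsf10b (means 4.51 and 6.86) and Fas (1.004 and 1.191) lay below the minimum for testing. In 1 control and 1 knockout library, Fas was at 0.

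RefSeq promoter windows (GRCm38.p6, 250 bases before to 50 after a start site) were found for 31 of the 36 members, 46 windows in all. They were searched on both strands for the p53 decamer: purines, a C, letters that are A or T, a G, and pyrimidines. It was present in 10 of 46 windows (21.7%), which belong to 9 genes, and in 8.36% of all 32851 windows of that length. Of the 9 genes, 4 fell (Trp53, Aen, Rps27l, Gtse1), 2 rose (Sesn1, Bmf) and 3 gave no call (Mdm2, Ccng1, Bax). The genes were picked as p53 targets and windows of 1 gene can overlap, so these shares are descriptions. A full response element is a pair of decamers with at most 13 bases between them. A pair in which both decamers match at every base was in 0 of the 46 windows and in 0.0731% of all. Pairs with a mismatch or outside the windows were not searched for, so this count does not show that the genes lack a full element. The following sites are shown because genes that fell, rose and gave no call carry the same kind of match; each is read 5′ to 3′ on the gene's strand, and capitals mark the decamer.
Trp53 (fell; chr11:69580274-69580303, + strand): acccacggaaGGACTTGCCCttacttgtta
Aen (fell; chr7:78895927-78895956, + strand): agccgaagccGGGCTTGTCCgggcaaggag
Rps27l (fell; chr9:66946296-66946325, + strand): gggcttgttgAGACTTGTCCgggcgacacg
Gtse1 (fell; chr15:85859945-85859974, + strand): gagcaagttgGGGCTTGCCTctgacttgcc
Sesn1 (rose; chr10:41887256-41887285, + strand): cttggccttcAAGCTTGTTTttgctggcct
Bmf (rose; chr2:118544781-118544810, - strand): cccaagtgaaGGGCTTGCCTcttgccgaat
Mdm2 (no call; chr10:117710925-117710954, - strand): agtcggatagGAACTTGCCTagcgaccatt
Bax (no call; chr7:45467080-45467109, - strand): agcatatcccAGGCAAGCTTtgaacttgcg

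With the start site counted as 0, the decamer begins at -75 in Trp53, -107 in Rps27l, -173 in Sesn1, -213 in Bmf, -186 in Mdm2 and -201 in Bax, and lies just inside the transcript in Gtse1 (9). The Aen decamer begins at 10 from 1 start site and at -121 from another, and Rps27l has another decamer at -210. Gtse1 and Bmf have the same decamer letters, and Gtse1 fell while Bmf rose. Binding of p53 to these windows was not tested. The windows of Sesn1 and Bmf that hold the decamer belong to start sites well inside the GENCODE gene. The core of the TCF/LEF motif that beta-catenin partners bind, CTTTGA, was in 5 of 46 windows (10.9%, against 16.0% of all windows), in Aen, Bax, Fas, Mdm4 and Xiap. The element TTTGAA, known from promoters of G2 and M phase genes, was in 7 of 46 (15.2%, against 17.9%), and not in the windows of Gtse1. CTTTGA and TTTGAA overlap in Aen, Bax and Fas, and in Bax the decamer overlaps both.

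In the BCL2 family, the survival gene Bcl2l1 and the BH3-only gene Bmf rose, and 9 of the 11 members tested gave no call. The share called was 18.2%, against 34.5% of all genes. Compared per kilobase (kb) of exon, Mcl1 was the most abundant family member, at 291 normalized counts per kb in control and 302 in knockout. Bax followed at 262 and 268, and Bcl2l1 at 129 and 178. Bcl2 itself was number 10 of 12 in both groups, at 12.8 and 11.4. Among the 12, only Bmf, Bbc3 and Bcl2l11 changed place in the order, with Bmf going from 19.1 to 33.4 per kb and past the other 2.

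**Figure D3:**
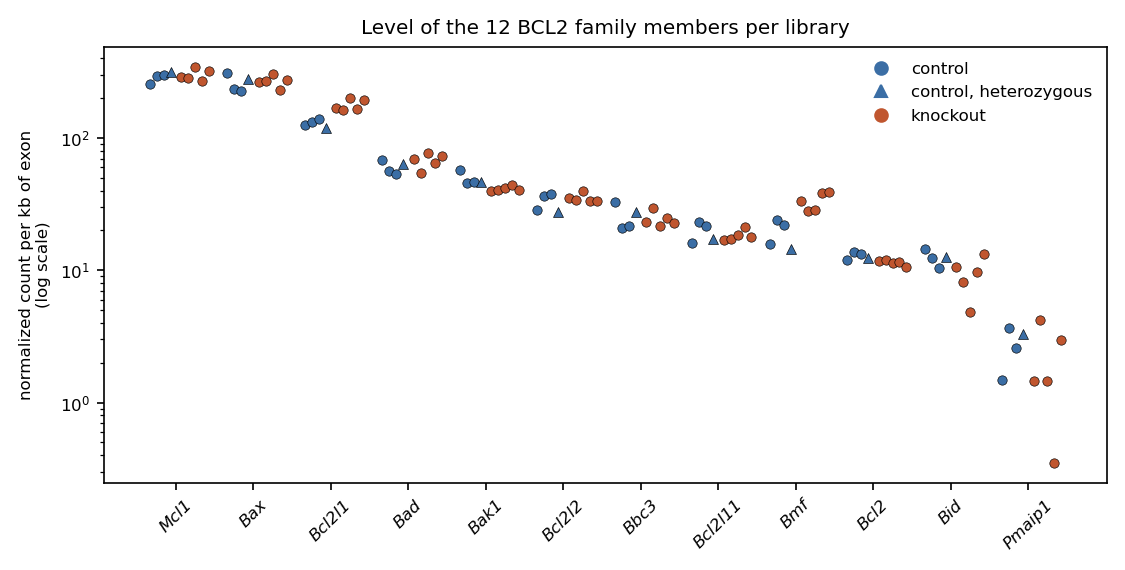
Normalized count per kb of exon of the 12 BCL2 family members in each library, on a log axis, ordered by the control mean; the triangle is the heterozygous control. Mcl1 and Bax lead in both groups, Bcl2l1 and Bmf sit higher in all 5 knockouts than in all 4 controls, and Pmaip1 is near the bottom of the range.

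Bcl2l1 encodes BCL-XL, the main survival protein of young neurons (chromosome 2, 152780668 to 152831728). It was at 579, 604, 636 and 542 in control and at 779, 749, 917, 754 and 892 in knockout, so that each knockout exceeded each control. It rose by 0.47 (SE 0.0924, adjusted p = 0.00163), 1.38-fold. Among knockouts it was lowest in replicate 2 and highest in replicate 3, while the summed neuron markers were lowest in replicate 2 and highest in replicate 5. Their part in the rise was not tested. Mcl1, the short-lived survival protein that neural progenitors need, had 996 ± 88.5 and 1031 ± 108 (log2 fold change 0.05, interval -0.16 to 0.26). Bcl2l2, which encodes BCL-W, had 146 ± 23.0 and 157 ± 11.8 (0.12, interval -0.14 to 0.38).

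Bcl2, the founding survival gene of the family, had 117 ± 6.75 and 105 ± 4.45. All 5 knockouts, at 97.7 to 110 (109.6 in replicate 2), lay below all 4 controls, at 110 (110.2 in replicate 1) to 125. The log2 fold change of -0.16 did not pass (interval -0.40 to 0.08, adjusted p = 0.273).

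The effector genes Bax and Bak1, whose proteins open the mitochondrial membrane, gave no call by limma, adjusted or unadjusted. Bax (chromosome 7, 45461697 to 45466898) was at 490, 368, 357 and 438 in control and at 416, 424, 481, 362 and 433 in knockout, with a log2 fold change of 0.04 (interval -0.20 to 0.28). Bak1 was at 110 to 138 in control and at 95.9 to 106 in knockout, without overlap, and control replicate 1 was the highest (-0.24, interval -0.49 to 0.02, adjusted p = 0.135). Bak1 shares 18.2% of its exon bases with the opposite-strand gene Ggnbp1, which had a mean of 26.3.

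Of the BH3-only genes, which start the intrinsic pathway, 1 of 5 tested rose and 0 fell by limma (1 and 0 unadjusted). That is 20% called, against 34.5% of all genes. Bmf, whose protein is held at the cytoskeleton in healthy cells (chromosome 2, 118528757 to 118549687), was at 82.9, 127, 116 and 76.7 in control and at 175, 147, 151, 202 and 204 in knockout. It rose by 0.82 (SE 0.165, adjusted p = 0.00192), 1.76-fold, with no overlap. Bbc3 and Pmaip1 encode PUMA and NOXA, the BH3-only proteins most tied to p53. Bbc3 had 54.9 ± 11.8 and 51.8 ± 6.41 (-0.07, interval -0.44 to 0.31), and Pmaip1, with 7.49 ± 2.60 and 5.71 ± 4.12, was below the minimum for testing.

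Bcl2l11, which encodes BIM, had 157 ± 26.9 and 148 ± 13.2, and Bad, which growth factor signals silence, had means of 155 and 173 (0.16, interval -0.11 to 0.43). Bid, the link from death receptors to mitochondria, had 44.3 ± 5.88 and 33.1 ± 11.2 (-0.48, interval -1.01 to 0.06, adjusted p = 0.157). Its knockout values ran from 17.1 in replicate 3 to 47.4 in replicate 5. Bid (mean 38.1 over all libraries) shares 17.7% of its exon bases with Bcl2l13 (mean 505) on the other strand. Bad shares 20.5% with the opposite-strand gene Gpr137 (mean 125). The levels of Bid and Bad are uncertain unless counting used strand.

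Among caspases and apoptosome genes, Xiap fell and 5 of 6 gave no call, 16.7% called against 34.5% of all genes. Xiap, an inhibitor that binds caspases (chromosome X, 42059679 to 42109656), was at 589, 660, 669 and 671 in control and at 524, 564, 507, 483 and 407 in knockout. Knockout replicate 2 came closest to the lowest control, replicate 1. The fall was 0.39 (SE 0.0998, adjusted p = 0.00826), 0.765 of control. As for the summed progenitor markers, replicate 2 was the highest knockout and replicate 5 the lowest, and the part of proliferating cells was not tested. Diablo, whose protein blocks XIAP, had means of 365 and 344 (-0.09, interval -0.29 to 0.12). It shares 21.5% of its exon bases with the opposite-strand gene B3gnt4 (mean 0.768) and 19.3% with the same-strand gene Gm49027.

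Apaf1, the scaffold of the apoptosome, had 423 ± 30.5 and 420.4 ± 38.2 (-0.01, interval -0.21 to 0.19). Casp2, a caspase activated by DNA damage and the most abundant of the 6 per kb (95.4 in control and 86.3 in knockout), had a log2 fold change of -0.14 (interval -0.36 to 0.07). Casp9, the initiator of the intrinsic pathway, was at 139, 169, 132 and 141 in control and at 175, 186, 163, 199 and 161 in knockout. Control replicate 2 overlapped the knockouts, and the log2 fold change of 0.29 did not pass (adjusted p = 0.066). Without control replicate 2 it was 0.36 and passed (adjusted p = 0.0313).

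Casp8, the initiator of the death receptor pathway, was at 47.5, 42.7, 38.2 and 44.8 in control and at 37.6, 43.3, 24.1, 28.7 and 14.1 in knockout. Knockout replicate 2 lay among the controls and replicate 5 far below them (-0.63, SE 0.271, adjusted p = 0.0863). Without knockout replicate 2 the log2 fold change was -0.78 and passed (adjusted p = 0.0325). Microglia also express Casp8; the summed level of 10 microglial markers was 432 to 619 in control and 300 to 487 in knockout and was highest among knockouts in replicate 5. Among knockouts Casp8 was highest in replicate 2 and lowest in replicate 5, as were the summed progenitor markers, at 27943 and 16982. The part of microglia or of proliferating cells in the Casp8 values was not tested.

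Beyond the members, 99 other genes of the pathway were listed, of which 76 were tested, 10 rose and 14 fell, 31.6% against 34.5% of all genes. Without control replicate 4, 9 fell, while the share of all genes that fell went from 17.3% to 12.2%. Against control replicates 2 and 3 only, 8 fell, and 8.08% of all genes. Of 28 other p53 targets tested, 6 rose and 4 fell (median 0.01), 35.7% called against 34.5% of all genes. Cdkn1a, the p21 gene and the best known p53 target in cell cycle arrest, was at 50.5, 43.7, 56.3 and 63.8 in control and at 52.4, 73.1, 51.2, 50.7 and 59.4 in knockout. The groups overlapped, with a log2 fold change of 0.10 (interval -0.27 to 0.46, adjusted p = 0.694). The genes with the smallest p in that list were the adenylate kinase gene Ak1 (80.6 ± 9.57 and 219 ± 48.1, log2 fold change 1.41), the antiproliferative gene Btg2 (626 ± 61.2 and 375 ± 55.5, -0.74), Trp53i11 (0.81) and the mitotic spindle gene Ckap2 (-0.77). Btg1 rose and its relative Btg2 fell.

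Of 23 regulators and relatives of p53 tested, 2 rose and 4 fell (median -0.07), 26.1% called against 34.5% of all genes. The checkpoint kinase genes Chek2 (165 ± 17.2 and 72.7 ± 17.8, -1.20) and Chek1 (388 ± 44.1 and 189 ± 56.3, -1.08) and the upstream kinase gene Atr (-0.50) fell. In all 3, knockout replicate 2 was the highest knockout and replicate 5 the lowest, as for Gtse1. Ppp1r13b, which encodes the p53 cofactor ASPP1, rose from 43.1 ± 6.70 to 95.6 ± 28.5 (1.10). Rpl5 and Rpl11, ribosomal proteins that inhibit MDM2, gave no call (log2 fold changes -0.18 and -0.28). Their means were 46.3 and 55.6 in control and 40.8 and 45.4 in knockout. Both have many near-identical copies, and their counts are uncertain.

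Of 5 other BCL2 family genes tested, Bcl2l12 fell (143 ± 21.8 and 64.7 ± 17.3, log2 fold change -1.16), Bcl2l13 fell (-0.26) and the mitophagy receptor gene Bnip3 rose (0.77). The share called in this small list was 60%, against 34.5% of all genes. Bcl2l12 shares 28.9% of its exon bases with Gm15545 (mean 41.5) and 4.5% with Irf3 (mean 295), both on the opposite strand. Bcl2l13 lost its call in 7 of 18 alternatives, with log2 fold changes of -0.21 to -0.26 there; its adjusted p was 0.0511 without control replicate 2, 0.0986 without control replicate 4, 0.0541 without knockout replicate 1 and 0.0532 without knockout replicate 4. It was 0.12 with no filter and 0.0897 against control replicates 2 and 3 only. Of 20 other caspases and regulators tested, 1 rose and 4 fell (median -0.12), 25% called against 34.5% of all genes. Birc5, which encodes survivin and acts in mitosis, fell from 771 ± 54.4 to 471 ± 95.2 (-0.73), while the death receptor gene Tnfrsf21 rose (0.58).

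Aifm1, a mitochondrial flavoprotein gene, fell by 0.33 (adjusted p = 0.0311). It lost its call in 8 of 18 alternatives, with log2 fold changes of -0.27 to -0.34 there. Its adjusted p was 0.0869, 0.0522 and 0.0592 without control replicate 1, 3 or 4, and 0.0745 and 0.0659 without knockout replicate 3 or 5. It was 0.0734 with no filter and 0.189 against control replicates 2 and 3 only.

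**Figure D4:**
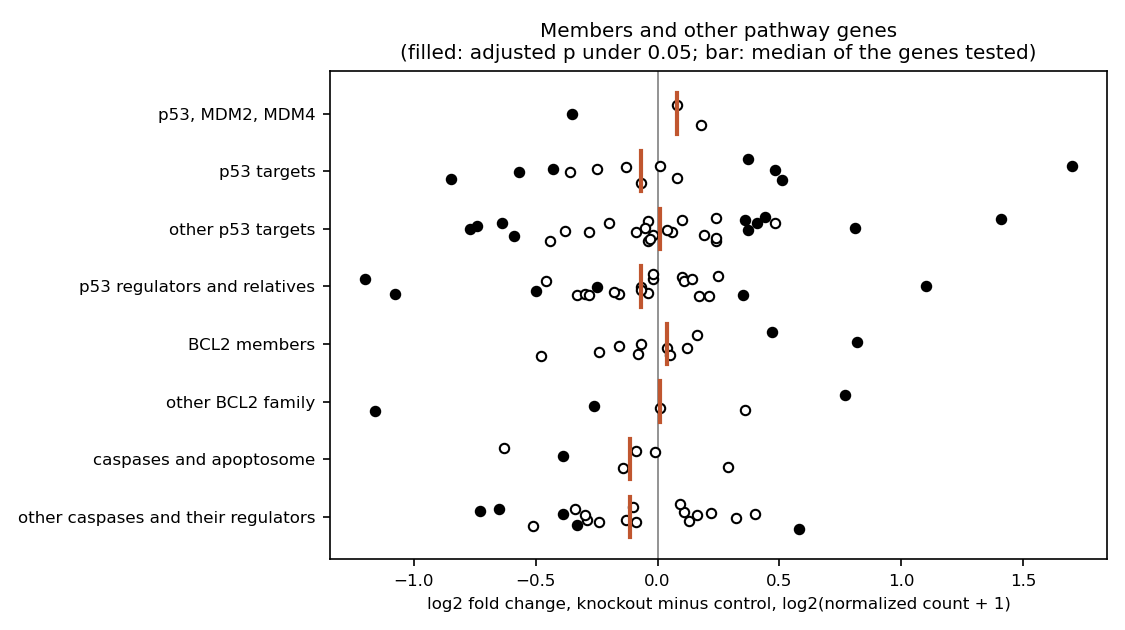
Log2 fold change of each tested gene, knockout minus control, in the members' groups and in the lists of other pathway genes; an adjusted p under 0.05 fills the point, and a bar marks each median. In the p53 target lists filled points lie on both sides of 0, from -0.85 to 1.70 for the members and from -0.77 to 1.41 for the others, and medians lie between -0.12 and 0.08.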

How the data were processed

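Each deposited value is a signal per gene that is 0 or above, made by the authors. In each library 100.0% of values lay within 0.01 of a whole multiple of 1 step, its smallest value above 0, as read counts divided by 1 factor would. No label gives these factors, so totals in reads are estimates, and no count model was fitted. The submitters' processing notes name DESeq2, HTSeq 0.9.1, TopHat2 2.1.1, mm10 and R 3.4.0; which step each served, the annotation and the strand setting were not found in the labels. NEBNext Ultra libraries used 500 ng of RNA, per the labels. Gene names came from the symbol table (48058 of 48526 IDs matched), and positions, counted from 1, and exon unions for per-kb levels from GENCODE M21.

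Log2(normalized count + 1) was tested with limma 3.58.1 (trend and robust options, statmod 1.5.0, R 4.3.3), two-sided. The 13780 genes whose mean reached 10 entered, and p-values were adjusted by Benjamini-Hochberg over all of them, with 0.05 as the threshold. This scale understates changes of low genes. All members are described; of each list of other pathway genes, at most 4 called genes with the smallest p are named, plus Cdkn1a; some genes that this rule names are not reported here. Rpl5 and Rpl11 were named after their values were seen. The members and lists were chosen with earlier results of these data known. The alternatives were pseudocounts of 0.5 and 8, filters at 0 and 50, scaling by TMM or by the upper quartile, limma with neither option, a replicate block, leaving out each library, and control replicates 2 and 3 only.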

Additional observations from a re-analysis of the deposited data

Results flagged for a closer look

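In 4 of 106 groups of libraries, over 53 genes, the highest or lowest library stood far from its group, relative to the group's range; chance flags about 5%. Knockout replicate 3 was such a library for Mdm2, with 712.2 against 579.8 to 617.3, and for Bcl2l2, with 177.5 against 149.3 to 157.3 normalized counts. Control replicate 1 was such a library for Bak1, with 137.5 where the others had 110.2 to 112.5, and for Xiap, with 589.3 where the others had 659.5 to 670.6. Xiap passed the test with and without that library.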

How the results depend on the processing

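Of 198 values that the 11 called members took under 18 alternatives, 191 kept their direction and call, 7 kept their direction and lost the call, and 0 reversed; the losses were 1 each in Trp53, Aen and Rps27l and 4 in Sesn1. All 4 genes lost the call with control replicates 2 and 3 only. Under that choice 2 members and 1 p53 gene fell, against 5 and 4. Leaving out each library in turn gave 0 to 1 caspase and apoptosome genes higher and 1 to 2 lower, and 9 to 17 other pathway genes lower; that last count was 8 with control replicates 2 and 3 only. The replicate numbers of the labels did not pair the libraries (correlations of deviations between same-numbered libraries -0.12, -0.09, 0.14 and -0.04). With a replicate block, 6 members rose and 5 fell as without it, while 9 other pathway genes fell in place of 14. In the block fit knockout replicate 5, which has no control of its number, added nothing to the difference between groups. Of all genes 25.5% were called with the block against 34.5% without it, and 12.2% against 17.3% fell. Bcl2l13 (adjusted p = 0.0891) and Aifm1 (0.1) lost their calls with the block. The members not called kept their side of the threshold in 388 of 390 values. At this depth Fas, Tnfrsf10b and Pmaip1 lay below the minimum mean and were not tested.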
